A study of Mus musculus with 6 samples.

Results

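Alveolar myofibroblasts are mesenchymal cells of the growing alveolar septum. They lie at the tips of the secondary septa, respond to PDGF-A through Pdgfra and deposit the elastic fibres around which new alveoli form. The population is known to be prominent during postnatal alveolarization and to decline as the lung matures. Hedgehog, Wnt, TGF-beta and FGF signals are exchanged between these cells and the neighbouring epithelium, endothelium and pericytes.

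The cells described here were 4063 of 70426 cells in 4 single-cell RNA-seq libraries of mouse lung at P21. They were chosen by measured transcripts. A barcode was a member when it held at least 1500 unique molecular identifiers (UMIs) in a Bdnf library or 700 in an Hgf library, a mitochondrial share of at most 25% and at least 3 of Hhip, Aspn, Enpp2, Wnt5a, Mustn1 and Tgfbi, Hhip or Aspn among them. At most 1 UMI was allowed in total over Pecam1, Cldn5, Ptprc, Etv5, Rtkn2, Higd1b and Pi16, genes of endothelial, immune, alveolar epithelial, pericyte and adventitial cells. The levels of these 13 genes therefore describe the choice and are no finding.

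The 4 genotypes were Bdnf lox/lox, Bdnf iPCKO, Hgf lox/lox and Hgf iPCKO. Both iPCKO genotypes carried the loxP-flanked alleles of the named gene together with the Pdgfrb(BAC)-CreERT2 transgene, which drives recombination in mural cells, and the lox/lox controls carried the flanked alleles without it. All mice received 50 µg tamoxifen on each day from P1 to P3. Each library pooled cells of 2 littermates after CD45+ cells and erythrocytes had been depleted, and 40000 cells were prepared per genotype. With 1 library per genotype no difference between genotypes could be tested. Intervals below are exact 95% intervals that cover counting error only, not the spread between mice. The authors deposited estimated UMI counts for every barcode without a cell filter, and levels are given in CPM, the UMIs of a gene relative to all UMIs of the summed members of a library, scaled to a common total. CPM were not corrected for transcript length, so levels are compared between samples for the same gene.

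The whole matrices held 69403166 to 186701379 UMIs, and 14095 to 23765 barcodes per library passed the UMI and mitochondrial limits. Members had a median of 3869 UMIs in Bdnf lox/lox, 2939 in Bdnf iPCKO, 2467 in Hgf lox/lox and 1749 in Hgf iPCKO. Between 1.72% and 2.87% of cells in the smaller library of a pair of libraries shared a barcode with the other, and 0 to 3 members did so. No library stood apart in its mitochondrial share, with medians of 5.62% to 6.32% over members. The summed members held 5346177, 7392937, 628640 and 1155601 UMIs in the order of genotypes given above, so the Hgf values are the less precise.

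The number of members differed widely between the 2 pairs. They were 1218 of 16748 cells in Bdnf lox/lox (7.27%, interval 6.88 to 7.68%) and 2055 of 23765 in Bdnf iPCKO (8.65%, 8.29 to 9.01%). Only 194 of 14095 cells in Hgf lox/lox were members (1.38%, 1.19 to 1.58%), against 596 of 15818 in Hgf iPCKO (3.77%, 3.48 to 4.08%). Both mutant libraries thus held a larger share than their own control, and both Hgf libraries held a smaller share than either Bdnf library. When every cell was thinned to 700 UMIs before the choice, the shares were 6.8%, 7.49%, 1.017% and 3.23%, and their order was kept. For this, 34 and 52 shallower cells of the Hgf libraries were left out. Among all cells named as mesenchymal (members, matrix fibroblasts, pericytes and smooth muscle cells), members made up 67.8%, 79.2%, 37.7% and 66.7%. Dissociation and depletion decide which cells enter a library, and their part in these shares was not tested.

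**Figure D1:**
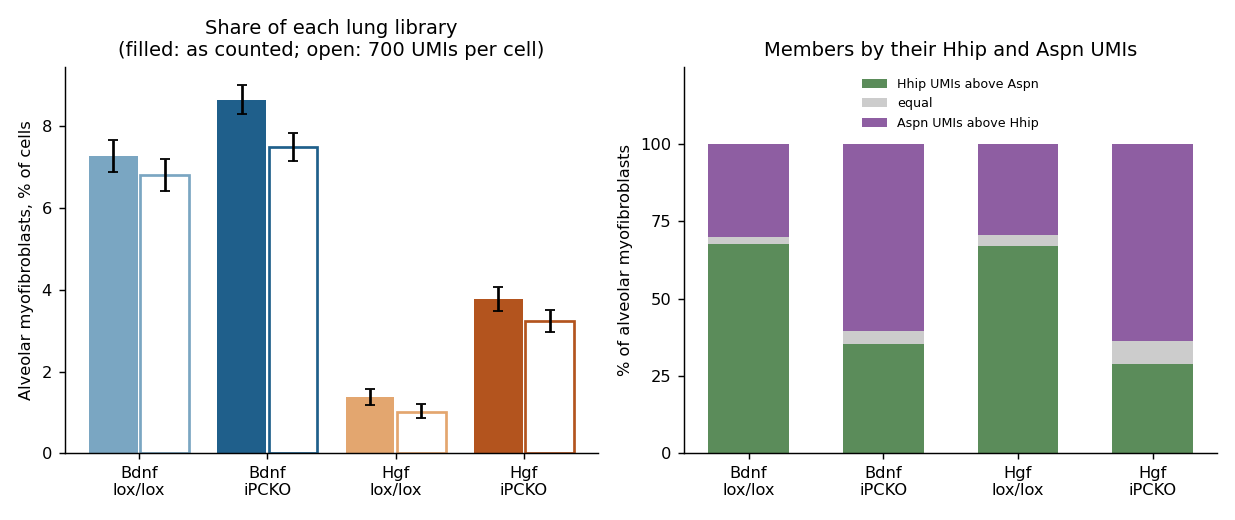
Left, share of cells that were alveolar myofibroblasts in each lung library, in percent of cells, as counted (filled bars) and with every cell thinned to 700 UMIs (open bars), with exact 95% binomial intervals. Right, share of members with more Hhip than Aspn UMIs, equal numbers or more Aspn than Hhip UMIs. The share in Hgf lox/lox (1.38%) is the smallest, and the part with more Aspn is larger in both mutant libraries (60.3% and 63.8%).

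The identity of the members was checked with genes that did not enter the choice. Lgr6, a receptor for R-spondins, had 199, 206, 150 and 254 CPM in members, 0.877, 4.93, 1.92 and 0 CPM in matrix fibroblasts and 82 to 302 CPM in smooth muscle cells. P2ry14, a receptor for UDP-sugars, had 328, 307, 196 and 270 CPM in members, 83.7 to 216 CPM in pericytes and 1.31 to 3.08 CPM in matrix fibroblasts. Both genes set members apart from matrix fibroblasts, the fibroblasts of the alveolar wall chosen here by Npnt, Ces1d and 4 further markers, but Lgr6 was shared with smooth muscle cells and P2ry14 with pericytes. Barcodes of 20 to 100 UMIs, which hold no cell and show free RNA, had 3.37 to 32.2 CPM of Lgr6 and 3.82 to 13.2 CPM of P2ry14.

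Eln, the elastic fibre protein tropoelastin (chromosome 5, 134731445 to 134776322 on the minus strand of GRCm39), had 5902 CPM in Bdnf lox/lox, 10189 in Bdnf iPCKO, 3587 in Hgf lox/lox and 6563 in Hgf iPCKO. Free RNA held 491 to 1285 CPM and alveolar type 2 (AT2) cells, which secrete surfactant, 42.6 to 124 CPM. Matrix fibroblasts had 6268, 3118, 7369 and 3568 CPM, so members were below them in both controls and above them in both mutants, and Eln did not mark the members alone.

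Contractile genes were low for cells of this name. Acta2, smooth muscle actin, had 331, 247, 776 and 451 CPM in members and 5411 to 14609 CPM in smooth muscle cells, of which Hgf iPCKO held only 13. Tagln, transgelin, had 574, 357, 789 and 428 CPM in members and 5742 to 8576 CPM in smooth muscle cells. Members were thus well below smooth muscle cells for both genes and above AT2 cells, which had 2.44 to 19.1 CPM of Acta2. Pdgfra had 375, 398, 377 and 217 CPM in members and 1172 to 1845 CPM in matrix fibroblasts, so the PDGF-A receptor was lower in members than in those cells in all 4 libraries. Cdh4, also outside the choice, had 394, 280, 158 and 169 CPM in members. The summed matrix fibroblasts, pericytes and smooth muscle cells had 4.51, 4.26, 3.88 and 0 CPM. The label of alveolar myofibroblast is thus given by the 6 chosen markers. Of the genes above that were not used in the choice, Cdh4 set members apart from the summed other mesenchyme. Lgr6 and P2ry14 set them apart from matrix fibroblasts, and neither Acta2 nor Pdgfra sets these cells apart at this age. Other markers outside the choice, such as Tnc, are not reported here.

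**Figure D2:**
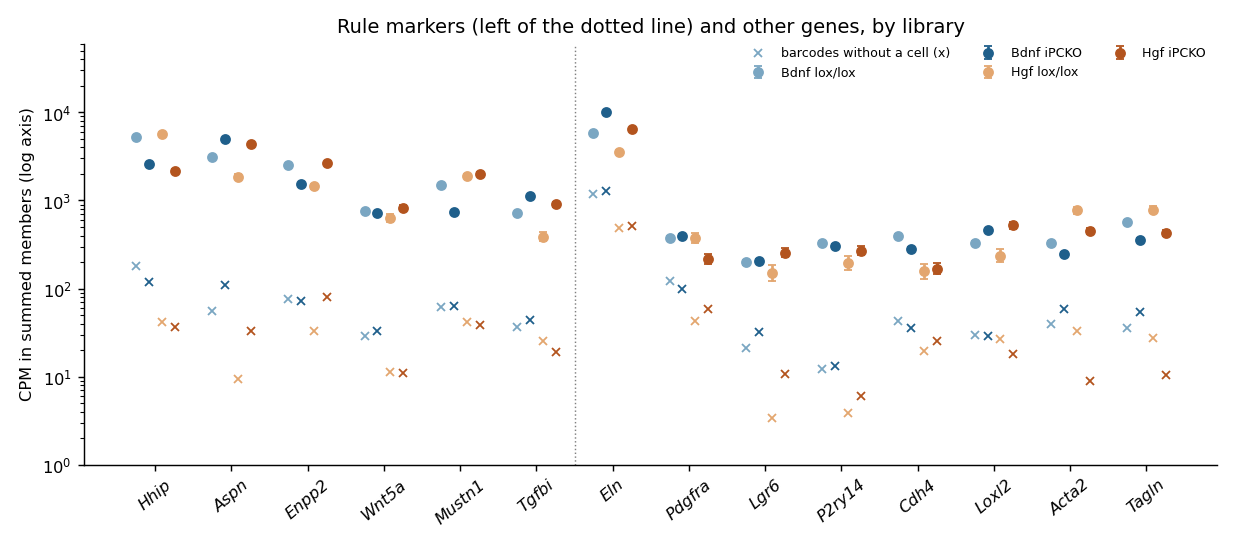
CPM on a log axis of the 6 genes used in the choice (left of the dotted line) and of 8 genes not used, over the summed members of each library, with exact 95% Poisson intervals. Crosses give the same gene in barcodes without a cell. All 14 genes lie above their crosses in every library. Hhip is lower and Aspn and Eln are higher in each mutant library than in its control.

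Markers of other mesenchymal classes were counted in every member. At least 3 of 6 adventitial fibroblast markers (Col14a1, Serpinf1, Clec3b, Scara5, Dpt and Ly6a) were found in 7.96% of members in Bdnf lox/lox, 10.4% in Bdnf iPCKO, 20.6% in Hgf lox/lox and 4.36% in Hgf iPCKO. At least 3 of 6 smooth muscle markers (Des, Actc1, Cnn1, Lmod1, Myocd and Pln) were found in 2.87%, 2.77%, 4.12% and 1.17%, and at least 3 of 6 pericyte markers in 1.64%, 1.12%, 5.15% and 3.02%. At this limit of 3 markers, Hgf lox/lox thus had the largest part for each of these classes. This was not so for all of them at 2 markers. At least 2 adventitial markers were found in 71.67%, 50.9%, 47.94% and 12.75% of members, and in 12.91%, 10.23%, 10.49% and 3.93% after thinning. At least 2 smooth muscle markers were found in 14.2%, 8.13%, 9.79% and 4.03%, and in 1.32%, 1.855%, 2.80% and 1.18% after thinning. For at least 2 pericyte markers Hgf lox/lox was highest under both counts, at 10.82% and 2.10%. Members with fewer than 3 markers of each of 6 other classes, called core members below, numbered 1040, 1732, 133 and 544, and values over core members alone are given beside many of the results. Scrublet marked 25, 76, 1 and 6 members as doublets.

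How many of the 6 chosen markers a member held also varied. All 6 were detected in 63.0% of members in Bdnf lox/lox, 45.3% in Bdnf iPCKO, 28.9% in Hgf lox/lox and 27.7% in Hgf iPCKO, an order that follows the median UMIs per member. Just inside the limit, the members with exactly 3 markers numbered 83, 233, 48 and 84 and had 7517, 7037, 6278 and 7375 CPM of Eln. Just outside it, cells with 2 markers numbered 180, 363, 78 and 81 and had 10837, 10050, 9521 and 5669 CPM of Eln, so the limit does not separate cells with from cells without Eln. Cells that met the marker limit but held more than 1 UMI of the excluded genes numbered 691, 1093, 178 and 114. Their median UMIs were 12094, 8159, 7997 and 4302, and they had 6240, 7779, 6826 and 4830 CPM of Eln. How the shares would change with a looser limit was not tested.

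Genes that set the members apart from other mesenchyme were listed after leaving out every gene used to choose cells. Compared with the summed matrix fibroblasts, pericytes and smooth muscle cells of the same library, 261 genes were at least 2-fold higher in members in all 4 libraries. These are a description, since the members were chosen by genes of the same cells. P4ha3, a subunit of collagen prolyl 4-hydroxylase, had 228, 218, 62.0 and 42.4 CPM in members, with log2 ratios of 7.77, 5.05, at least 4.0 and 4.76 over the other mesenchyme. Cdh4, R-cadherin, had 394, 280, 158 and 169 CPM, with log2 ratios of 6.45, 6.04, 5.34 and at least 5.17. Cntfr, the ligand-binding receptor of ciliary neurotrophic factor, had 502, 393, 134 and 776 CPM.

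The other genes of highest rank were of several kinds. Secreted and matrix proteins were Thbs2 (thrombospondin 2), Lum (lumican, a proteoglycan of collagen fibrils), Pappa2 (a protease of IGF-binding proteins), Pcsk6 (a proprotein convertase) and Ccdc3. Cyp2e1 encodes a cytochrome P450, Cacna1g a T-type calcium channel, Fhod3 a formin that assembles actin, Rbfox1 a splicing factor, and Trim67 and Rnf165 ubiquitin ligases. Thbs2 reached 241, 225, 116 and 169 CPM in members. Several of these genes differed within a pair, as described below.

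Members differed among themselves in the balance of Hhip and Aspn. Hhip binds hedgehog ligands and limits their signal, and Aspn encodes asporin, a small leucine-rich proteoglycan that binds collagen and TGF-beta. Hhip lies on chromosome 8 at 80692480 to 80784658 on the minus strand of GRCm39, and Aspn on chromosome 13 at 49697609 to 49721057 on the plus strand. Most members held both transcripts, 89.98%, 84.7%, 71.7% and 74.5% in the 4 libraries. More Hhip than Aspn UMIs were counted in 67.8% of members of Bdnf lox/lox and 67.0% of Hgf lox/lox, against 35.2% of Bdnf iPCKO and 29.0% of Hgf iPCKO. More Aspn than Hhip UMIs were counted in 30.2% and 29.4% of members of the controls and in 60.3% and 63.8% of members of the mutants.

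As counted, the share with more Hhip was larger in each control than in its mutant. After thinning to 700 UMIs it was 62.9%, 31.0%, 80.4% and 29.5%, and among core members 71.9%, 36.7%, 86.5% and 30.5%, so the controls then differed from each other as well. Across members thinned to that depth, Spearman's rho of Hhip and Aspn UMIs was -0.04, -0.07, 0.02 and -0.06 over 1139, 1779, 143 and 509 members, each set from 1 library. Both genes took part in the choice, so these shares are a description with no test.

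Members with more Hhip UMIs (Hhip-rich) and with more Aspn UMIs (Aspn-rich) were compared within each library with a split that was made after values had been seen. The names give the balance of Hhip and Aspn in a cell. Aspn itself had log2 ratios, Aspn-rich over Hhip-rich, of 0.81, 1.91, -0.43 (-0.61 to -0.26) and 1.65 in the 4 libraries. In Hgf lox/lox the Aspn-rich members thus held less Aspn, at 1580 against 2133 CPM, and stood out by low Hhip, at 545 against 10189 CPM. Of 3283 genes with at least 30 UMIs in every library, 7 were at least 2-fold higher in Aspn-rich members in all 4 libraries. In Hhip-rich members only Hhip was, which defines the split. Acta2 had 225, 119, 372 and 150 CPM in Hhip-rich and 550, 318, 1298 and 596 CPM in Aspn-rich members, log2 ratios of 1.29, 1.42, 1.80 and 1.99. Without the members that held markers of another class, these ratios were 0.81, 1.06, 2.47 and 1.84. Smooth muscle actin was therefore higher in Aspn-rich members in every library under both counts, but smooth muscle markers moved with the split. At least 3 of them were found in 1.57%, 1.24%, 1.54% and 0.578% of Hhip-rich and in 5.98%, 3.87%, 10.5% and 1.58% of Aspn-rich members.

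Postn, a matrix protein called periostin, had log2 ratios of 4.21, 2.81, 4.42 and 3.0, and Notch3, a receptor typical of mural cells, 3.73, 2.04, 7.10 and at least 4.33. In the Hgf libraries these rest on low levels in Hhip-rich members, 8.94 and 6.40 CPM of Postn and 2.98 and 0 CPM of Notch3. Intervals there were 2.80 to 6.75 and 1.05 to 6.10 for Postn, and 4.60 to 12.42 for Notch3 in Hgf lox/lox. Col8a1, Col15a1, Ltbp2 (an elastic fibre gene) and Gucy1b1 (a subunit of soluble guanylate cyclase) completed the 7 genes. Ltbp2 had ratios of 1.35, 1.39, 1.46 and 1.85. Markers of other classes moved with this split too. At least 3 pericyte markers were found in 0.363%, 0.276%, 0% and 0% of Hhip-rich and in 4.62%, 1.61%, 17.5% and 4.74% of Aspn-rich members, and at least 3 adventitial markers in 5.21%, 8.43%, 9.23% and 2.89% against 13.3%, 10.5%, 43.9% and 4.74%. At least 3 matrix fibroblast markers were found in 3.15%, 2.07%, 2.31% and 1.16% against 7.07%, 3.07%, 17.5% and 0.789%. At least 2 matrix fibroblast markers were also found in 84.85%, 80.73%, 56.02% and 71.62% of AT2 cells, so this set does not mark fibroblasts alone. Aspn-rich members were deeper, with medians of 4021, 3202, 3519 and 1804 UMIs against 3792, 2606, 2295 and 1653. The part of depth in these shares was not tested. Among core members, Postn had ratios of 3.69 and 2.09 in the Bdnf libraries and Notch3 3.14 and 1.85. In the Hgf libraries core members held too few UMIs of Postn to compare, 2 and 0 in Hgf lox/lox and 1 and 6 in Hgf iPCKO, and Notch3 had 1 and 1 in Hgf lox/lox. Ltbp2 had 1.30 and 1.57 there, and 0.48 (-1.55 to 2.09) and 0.83 (-0.04 to 1.78) in the Hgf libraries. Col15a1 had 0.95, 2.71, 4.56 and 3.71, and the intervals of Col8a1 included 0 in both Bdnf libraries (-0.05 to 3.07 and -0.30 to 2.61). Gucy1b1 was under 2-fold there, at 0.17 and 0.53 in the Bdnf libraries and 0.57 in Hgf iPCKO, and only 15 core members of Hgf lox/lox were Aspn-rich.

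Eln was higher in Aspn-rich members of all 4 libraries, at 8101, 12934, 5141 and 7340 CPM against 4653, 5235, 2448 and 5011 CPM in Hhip-rich members. Its log2 ratios were 0.80, 1.30, 1.07 and 0.55, and 0.93, 1.48, 1.40 and 0.41 among core members. Fgf18, a myofibroblast marker outside the choice, was uneven. It had 65.4, 49.9, 98.3 and 0 CPM in Hhip-rich and 62.7, 56.7, 7.52 and 11.9 CPM in Aspn-rich members. On the Hhip-rich side, Cyp2e1 had ratios of -1.08, -0.77, -5.24 and -1.03, and of -0.72, -0.72, -3.17 and -0.98 among core members, where it rested on 6 UMIs in Aspn-rich members of Hgf lox/lox. Fgfr2, a receptor of FGF7 and FGF10, Tcf7l2, a transcription factor of the Wnt pathway, Foxf1, a target of hedgehog signals, and Spock2, a proteoglycan, had ratios below 0 in every library, by less than 2-fold in most, but the intervals reached 0 for Foxf1 in both Hgf libraries (-1.08 to 0.05 and -0.78 to 0.00) and for Tcf7l2 in Hgf iPCKO (-0.90 to 0.02). Cyp2e1 and these genes came from the 15 whose ratio nearest 0 over the 4 libraries lay furthest below 0. Their sign in every library thus follows from the choice. Among core members the ratios of Fgfr2, Tcf7l2, Foxf1 and Spock2 were also below 0 in every library. The intervals reached 0 for Foxf1 in both Hgf libraries (-2.49 to 0.19 and -0.84 to 0.00) and for Tcf7l2 in Hgf lox/lox (-3.29 to 0.73).

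**Figure D3:**
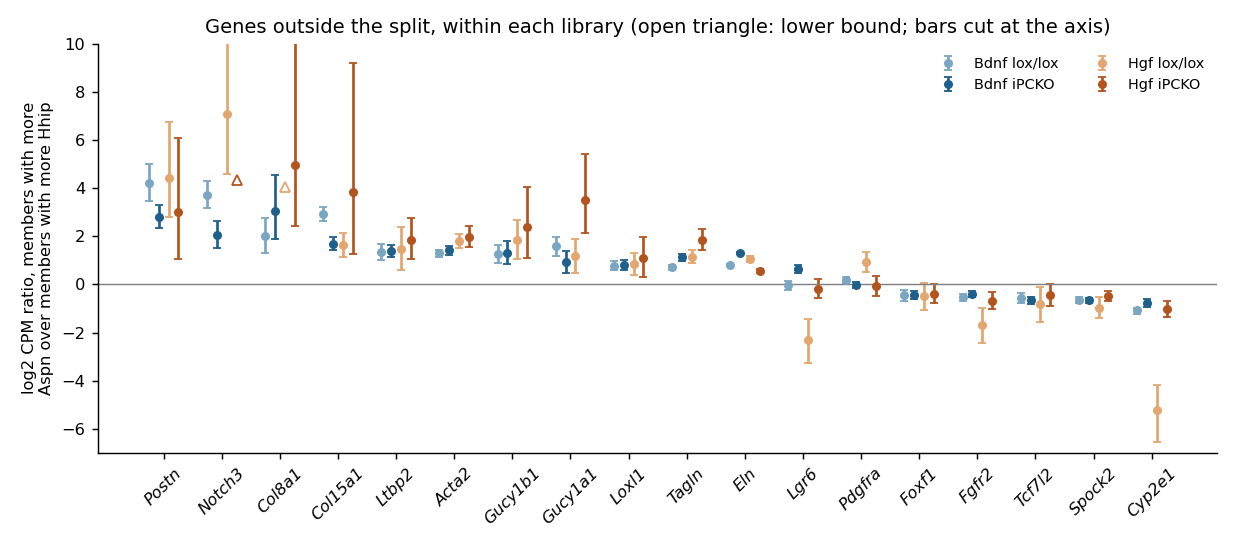
Log2 ratio of CPM in members with more Aspn over members with more Hhip UMIs, for 18 genes not used in the split and for each library, with exact 95% intervals from counting; bars are cut at the axis and open triangles are lower bounds. Postn, Notch3, Ltbp2, Acta2 and Eln lie above 0 in all 4 libraries, and Cyp2e1 and Spock2 below 0. All but Eln, Lgr6 and Pdgfra were picked for a ratio of the same sign in every library.

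The Bdnf pair asks how alveolar myofibroblasts differed when Bdnf, the ligand of the TrkB receptor Ntrk2, was deleted in Pdgfrb-expressing cells. Bdnf itself had 69.2 CPM (370 UMIs) in members of Bdnf lox/lox and 52.9 CPM (391 UMIs) in Bdnf iPCKO, a log2 ratio of -0.39 (-0.60 to -0.18). In the Hgf pair it had 25.5 and 67.5 CPM. Pericytes of Bdnf lox/lox had 11.8 CPM (3 UMIs, interval 2.43 to 34.5), smooth muscle cells 48.9 CPM, matrix fibroblasts 9.64 CPM and AT2 cells 1.23 CPM, while barcodes without a cell held 32.6 CPM. Members thus carried more Bdnf than free RNA in 3 of the 4 libraries, Hgf lox/lox being the exception with 33.2 CPM in barcodes without a cell. Whether the counted 3′ ends of Bdnf and Hgf transcripts lie inside the deleted exons is not given in the sources used here, so these levels do not check the deletion.

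In the Bdnf pair, 219 of 12505 genes with at least 50 UMIs were at least 2-fold higher in Bdnf iPCKO members (1.75%) and 131 were at least 2-fold lower (1.05%), with a median log2 ratio of -0.01. The higher count depended on the processing, with 107 genes (1.14%) when cells were thinned to 1500 UMIs and 650 (5.23%) when free RNA was subtracted. For this, free RNA was assumed, not measured, to make up 10% of the members' UMIs in each library. The genes with the largest ratios on the higher side came from very few cells. Tff2, a trefoil peptide, had 1 UMI in Bdnf lox/lox and 358 in Bdnf iPCKO, all in 0.146% of members. Col2a1, Col9a1, Col11a1, Col11a2, Col9a2 and Acan, genes of cartilage matrix, reached at most 47.8 CPM, and Col2a1 was found in 0.146% of mutant members. H19, an imprinted RNA, had 6 UMIs in 0.246% of control members and 1084 in 1.75% of mutant members. Dlk1, Tbx20, Sfrp2 and Angptl7 were of the same sparse kind, each in at most 1.80% of mutant members.

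The most abundant genes on the lower side of the Bdnf pair were secreted proteins and an enzyme. Spon2, a secreted spondin of the matrix, had 202 CPM in Bdnf lox/lox and 52.8 CPM in Bdnf iPCKO, a log2 ratio of -1.94 (-2.11 to -1.77). Igfbp3, a binding protein of insulin-like growth factors, had 511 and 161 CPM (-1.67, -1.77 to -1.57), and Lum 492 and 156 CPM (-1.66, -1.76 to -1.56). Cyp2e1 had 646 and 204 CPM (-1.66, -1.75 to -1.57). These 4 genes kept ratios of -1.95, -2.32, -1.97 and -1.61 among core members. For Spon2 and Igfbp3, matrix fibroblasts of the same pair had ratios of -1.36 and -1.25, so both genes were also lower there, and Lum had 0.38.

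The other genes of highest rank on the lower side were less abundant. Trim9, a ubiquitin ligase known from neurons, had 15.7 and 2.44 CPM, Ngb, neuroglobin, 38.7 and 12.8 CPM, Timp4, an inhibitor of metalloproteinases, 18.3 and 5.55 CPM, and Col5a3 26.6 and 8.93 CPM. Dio3os, Shisal1 and Trdn had at most 11.97 CPM in either library.

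Single genes of secreted signals, picked from several lists, were also at least 2-fold apart. Of 12 VEGF and angiopoietin genes 1 was higher and 1 lower, with a median log2 ratio of 0.03. The TGF-beta and BMP list had a median of 0.04 and the neurotrophin list -0.12. Tgfb2, a TGF-beta ligand, had 118 CPM in Bdnf lox/lox and 248 in Bdnf iPCKO (1.07, 0.94 to 1.20, core 1.21), and Pgf, placental growth factor, a ligand of the VEGF receptor Flt1, 8.42 and 29.8 CPM (1.82, 1.35 to 2.32, core 2.83). In Hhip-rich members taken alone Tgfb2 was under 2-fold (0.32, 0.10 to 0.54), and in Aspn-rich members it had 1.15 (0.96 to 1.35). Pgf had 1.40 and 1.25. Grem1, an antagonist of BMPs, had 15.3 and 31.5 CPM (1.04, 0.67 to 1.42, core 0.94). Angpt2, a ligand of the Tie2 receptor on endothelium, had 86.4 and 34.1 CPM (-1.34, -1.57 to -1.12, core -1.33), and Ntf3, the ligand of TrkC, 50.9 and 23.3 CPM (-1.13, -1.41 to -0.85, core -1.37). Igfbp5 was just under 2-fold, with 6342 and 3202 CPM (-0.99, -1.01 to -0.96).

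The gene lists were described by their counts and medians, beside the background of 1.75% higher and 1.05% lower. Of 20 elastic fibre genes, 3 were at least 2-fold higher and 0 lower, with a median log2 ratio of 0.07, and among core members 2 of 19 were higher. The 3 were Fbn2, a fibrillin (8.60 and 29.8 CPM), Fbln2, a fibulin (19.1 and 47.3 CPM), and Ltbp2 (59.7 and 129 CPM). Fbn2 and Fbln2 of the control lay below the 28.6 and 33.5 CPM of barcodes without a cell. Eln, the core of the fibre, had 5902 and 10189 CPM (0.79, 0.77 to 0.81), and Loxl2, a cross-linking lysyl oxidase, 332 and 457 CPM (0.46, 0.38 to 0.54). Within Hhip-rich members alone Eln had a ratio of 0.17 (0.14 to 0.20), and within Aspn-rich members 0.68 (0.65 to 0.70). Both were below the ratio over all members.

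None of 20 contractile genes was 2-fold apart, with a median of -0.24, and among core members 1 was higher, with a median of -0.20. Acta2 had 331 and 247 CPM, Tagln 574 and 357, and Mylk, myosin light chain kinase, 637 and 439 (-0.54, -0.61 to -0.47). Within Hhip-rich members alone Acta2 had a ratio of -0.92 (-1.13 to -0.72) and Tagln -1.23 (-1.38 to -1.08). Within Aspn-rich members Acta2 had -0.79 (-0.91 to -0.67) and Tagln -0.82 (-0.92 to -0.72). The ratios over all members thus understate the difference within each part for Acta2 and Tagln. Of 18 collagen genes none was 2-fold apart either, with a median of 0.02 (among core members 2 higher, median 0.13), Col1a1 having 7764 and 9807 CPM and Col3a1 10809 and 9422 CPM. Nor was any of 21 Wnt, 17 immediate-early, 12 heat shock or 10 glucocorticoid response genes, with medians of -0.05, -0.05, -0.06 and 0.05. The immediate-early genes, which dissociation is known to induce, summed to 46868, 44166, 45293 and 42179 CPM over the 4 libraries.

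Interferon-stimulated genes were the list with the largest share on the lower side. Of 9 measured, 4 were at least 2-fold lower and 0 higher, with a median log2 ratio of -0.81, and among core members 3 of 7 were lower, with a median of -0.79. Ifi27 had 62.9 CPM in Bdnf lox/lox and 28.7 in Bdnf iPCKO (-1.13, -1.39 to -0.88), Oasl2 26.6 and 9.33 CPM, Ifit3 20.2 and 5.95 CPM and Ifit1 9.35 and 0.812 CPM. Ifit1, Ifit3 and Oasl2 were at or near the levels of barcodes without a cell in the control (13.1, 16.1 and 22.2 CPM). In matrix fibroblasts of the same pair the median of the list was -0.95.

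Receptors and their partners were mostly within 2-fold in the Bdnf pair. Of 24 TGF-beta and BMP genes, 2 were higher (Tgfb2 and Grem1) and 1 lower, and among core members 1 was higher and 1 lower. Of 12 hedgehog genes none was 2-fold apart other than Hhip, a gene of the choice, and among core members none of 11 was. The receptor Ptch1, a target of the pathway, had 109 and 118 CPM (0.10, -0.05 to 0.26) and the transcription factor Gli1 22.6 and 27.6 CPM (0.29, -0.05 to 0.62). Of 7 neurotrophin genes, Ntf3 was lower; Ntrk2 had 38.5 and 39.5 CPM and Ntrk3, the receptor TrkC, 175 and 147 CPM. Of 13 FGF genes 1 was lower, Fgfr4, and the PDGF list held 1 higher (Pdgfrb) and 1 lower gene (Pdgfc, 6.36 and 2.30 CPM) of 6.

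The Hgf pair asks the same of Hgf, the ligand of the Met receptor. Hgf had 33, 30, 5 and 4 UMIs in members of the 4 libraries, 6.17, 4.06, 7.95 and 3.46 CPM, below the 20.4, 8.04, 17.3 and 8.05 CPM of barcodes without a cell. Pericytes had 189, 68.8, 148 and 24.8 CPM. Hgf transcripts were thus not detectable above free RNA in alveolar myofibroblasts at this depth. Met had 49.3 CPM in Hgf lox/lox and 71.8 in Hgf iPCKO, against 184 and 55.8 CPM in barcodes without a cell.

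In the Hgf pair, 540 of 5756 measured genes were at least 2-fold higher in Hgf iPCKO members (9.38%) and 411 were at least 2-fold lower (7.14%). The median log2 ratio over these genes was 0.16, a shift relative to which the other values can be read. Among core members, 422 of 4545 genes were higher and 238 were lower. With every cell thinned to 700 UMIs, 236 of 1708 genes were higher (13.8%) and 89 were lower (5.21%). At the limit of 3 markers of another class the composition of Hgf lox/lox members differed from the other libraries, as given above, and adventitial markers moved with the lower genes. All 10 of that list were measured, 9 were at least 2-fold lower in Hgf iPCKO and 0 higher, and their summed level was 3257, 2651, 8627 and 2272 CPM in the 4 libraries. Among core members 3 of that list could be measured, and 2 of these were still lower, with a median of -1.09, so leaving out members with markers of another class did not remove this difference. Core ratios below are to be read with that limit. Lists of other classes moved too. Of 8 matrix fibroblast markers 4 were lower and 1 was higher, with a median of -1.13 (core 0.23). All 3 measured airway epithelial markers were higher, also among core members, and the list summed to 479 CPM in Hgf lox/lox and 3603 in Hgf iPCKO. Alveolar type 1 markers summed to 490 and 1015 CPM and endothelial markers to 100 and 260 CPM.

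All 12 genes of highest rank on the higher side were at least 2-fold higher among core members too. Pcsk5, a proprotein convertase that activates growth factor precursors, had 191 CPM in Hgf lox/lox and 2009 in Hgf iPCKO (log2 ratio 3.40, 3.13 to 3.67, core 2.66), against 819 and 782 CPM in the Bdnf pair. Sox4, a transcription factor of mesenchymal progenitors, had 134 and 1163 CPM (3.12, 2.80 to 3.46, core 2.93), against 247 and 238 CPM in the Bdnf pair. Nampt, an enzyme of NAD synthesis, had 229 and 1779 CPM (2.96, 2.71 to 3.21, core 2.16), against 634 and 481 CPM. For these 3 genes Hgf lox/lox was the lowest and Hgf iPCKO the highest of the 4 libraries.

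Garre1, an effector of Rac, had 68.4 and 736 CPM (3.43, core 3.08), Galnt15, an enzyme of O-glycosylation, 264 and 1619 CPM (2.62, core 3.57), and Angptl4, a secreted inhibitor of lipoprotein lipase, 12.7 and 128 CPM (3.33, core 5.14). Fbxo32 and Trp53inp1, genes of muscle protein turnover and of the p53 response, had ratios of 2.98 (core 2.41) and 2.71 (core 2.36), Rgs16, a brake on G protein signals, 2.95 (core 2.26), Tgif1, a repressor in the TGF-beta pathway, 2.71 (core 2.15), and the RNA Epb41l4aos 3.65 (core 4.17). Cyp26b1, which degrades retinoic acid, had 1 UMI in Hgf lox/lox and 63 in Hgf iPCKO, a ratio of 5.10 with an interval of 2.57 to 10.43 (core at least 2.61). In Hgf lox/lox its level in barcodes without a cell, 29.6 CPM, was above that of members.

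On the lower side Spon2 had 412 CPM in Hgf lox/lox and 25.1 in Hgf iPCKO (-4.04, -4.64 to -3.48, core -4.09), and matrix fibroblasts of the pair had -5.97. Pcolce, an enhancer of procollagen C-proteinase, had 417 and 27.7 CPM (-3.91, core -2.13), and Igfbp4 1677 and 158 CPM (-3.40, core -2.48). Clec11a, Lgi2, Cpxm1, Cxcl12, C3 and Vcam1 had ratios between -4.58 and -3.20 but held too few UMIs among core members for a ratio. Col15a1 (293 and 32.0 CPM, -3.19) and Akap12, a scaffold of protein kinase A (1077 and 96.9 CPM, -3.47), had core ratios of -0.05 and 0.07, so their difference was not seen once members with markers of another class were left out.

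The medians of the matrix lists were nearer 0 among core members. Of 16 collagen genes, 8 were at least 2-fold lower in Hgf iPCKO and 0 higher, with a median log2 ratio of -1.0. Among core members it was 3 of 12, with a median of -0.11. Col1a1 had 20056 CPM in Hgf lox/lox and 6108 in Hgf iPCKO (-1.72, core -0.07), against 7764 and 9807 CPM in the Bdnf pair, so the control stood above the other 3 libraries. Col3a1 had 13435 and 2945 CPM (-2.19, core -1.57) and Col6a3 460 and 183 CPM (-1.33, core -1.65). Matrix fibroblasts of the pair had a collagen median of -1.29.

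Of 17 elastic fibre genes, 8 were lower and 1 was higher, with a median of -0.80. Among core members 4 were lower and 3 higher of 13, with a median of -0.01. Eln itself was higher, with 3587 and 6563 CPM (0.87, 0.80 to 0.94, core 1.25), and so was Loxl2, with 237 and 521 CPM (1.14, core 1.29). In matrix fibroblasts Eln had ratios of -1.01 in the Bdnf and -1.05 in the Hgf pair, opposite in sign to the members. Fbln1 (592 and 102 CPM, core -2.12), Loxl1 (296 and 94.3 CPM, core -1.34) and Mfap4 (1037 and 229 CPM, core -1.14), a fibulin, a lysyl oxidase and a microfibril protein, were lower in members under both counts. Of 18 contractile genes 3 were lower, with a median of -0.70, and of 17 among core members 5, with a median of -0.73. Without members that held 2 smooth muscle markers, 1 of 17 was lower and the median was -0.07, and with at most 10% mitochondrial UMIs it was -0.36. The smooth muscle filter took out 9.79% of Hgf lox/lox and 4.03% of Hgf iPCKO members. It picks cells by genes of the smooth muscle programme, so part of that move follows from the filter itself. Acta2 had 776 and 451 CPM (-0.78, core -0.60) and Myl9, a myosin light chain, 256 and 85.7 CPM (-1.58, core -1.65). Within Hhip-rich members alone Acta2 had -1.31 (-1.82 to -0.81) and Tagln -1.75 (-2.24 to -1.28). Within Aspn-rich members, 57 cells in the control, Acta2 had -1.12 (-1.33 to -0.92) and Tagln -1.06 (-1.27 to -0.84).

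Glucocorticoid response genes were higher as a list, also among core members. Of 10 measured, 6 were at least 2-fold higher in Hgf iPCKO and 0 lower, with a median log2 ratio of 1.63, and the counts were the same among core members, with a median of 1.37. With every cell thinned to 700 UMIs, 5 of 10 were higher and the median was 1.03. Sgk1, a kinase of ion transport, had 104, 143, 54.1 and 286 CPM in the 4 libraries (Hgf pair 2.40, 1.89 to 2.96, core 2.07). Pdk4, which limits pyruvate oxidation, had 41.7, 47.5, 28.6 and 144 CPM (2.33, 1.62 to 3.12, core 2.12), and Zbtb16, a transcription factor, 520, 428, 79.5 and 350 CPM (2.14, 1.71 to 2.59, core 2.06). Tsc22d3, the leucine zipper GILZ, had 190.9 and 684 CPM (1.84, core 1.34), Per1 81.1 and 258 CPM (1.67, core 1.40), and Fkbp5, a co-chaperone of the receptor, 50.9 and 153 CPM (1.59, core 1.44).

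For Sgk1, Pdk4, Zbtb16 and Fkbp5 the lowest of the 4 libraries was Hgf lox/lox, and the highest for Zbtb16 was Bdnf lox/lox. The direction of the list was shared by other cells. Its median was 1.03 in matrix fibroblasts and 1.70 in AT2 cells of the Hgf pair, and the levels of Fkbp5 and Zbtb16 in barcodes without a cell (329 and 557 CPM in Hgf iPCKO, against 24.9 and 322 CPM in Hgf lox/lox) exceeded those of members in Hgf iPCKO. Free RNA of these genes was thus also higher in Hgf iPCKO, and its part was not tested.

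**Figure D4:**
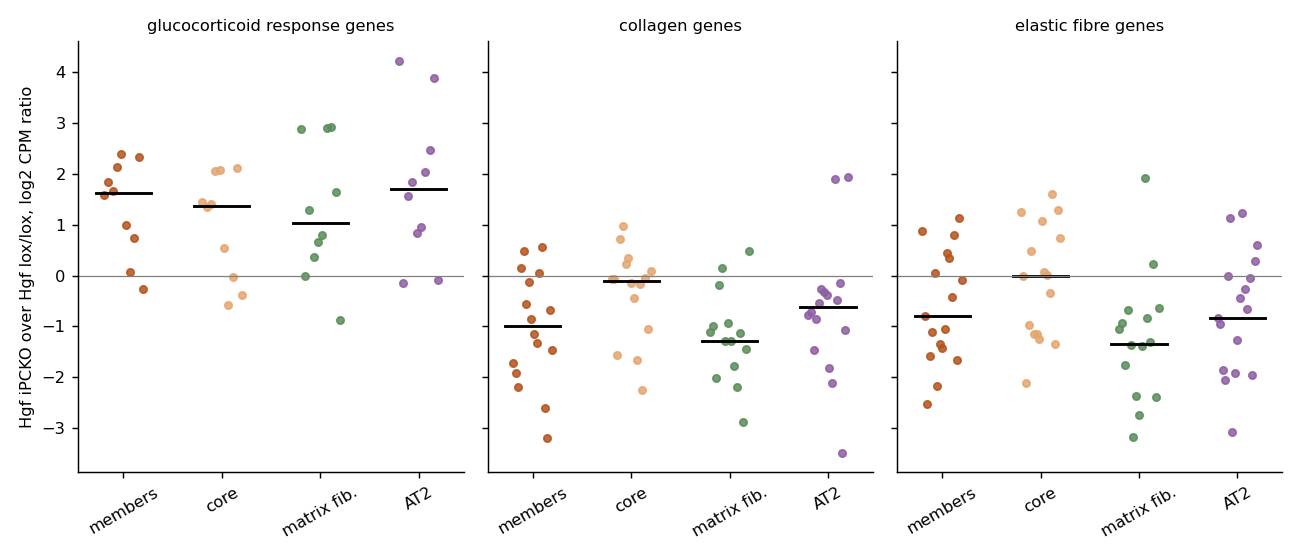
Log2 ratio of CPM, Hgf iPCKO over Hgf lox/lox, for genes of 3 lists (points, those with at least 50 UMIs in members and a ratio in the named cells) in all members, core members, matrix fibroblasts and AT2 cells. The bar is the median over list genes with at least 50 UMIs in those cells. The glucocorticoid median is above 1 in all 4, while the collagen and elastic fibre medians of members (-1.0 and -0.80) are near 0 in core members (-0.11 and -0.01).

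Signals and receptors of the Hgf pair are read against its background of 9.38% higher and 7.14% lower. Of 9 IGF genes 5 were lower, with a median of -1.18, and among core members 4 were lower and 1 higher, with a median of -0.69. Igf1 had 318 and 64.9 CPM (-2.29, core -2.62), Igfbp5 4688 and 1402 CPM (-1.74, core -2.58) and Igfbp3 412 and 120.3 CPM (-1.78, core -2.32), against ratios of 0.13, -0.99 and -1.67 in the Bdnf pair. Igfbp7 was lower only with all members counted (-1.18, core -0.11).

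Of 22 TGF-beta and BMP genes, 4 were higher and 3 lower, Aspn and Tgfbi of the choice being 2 of the higher ones. Among core members 3 of 20 were higher and 2 lower. Tgfbr3, the co-receptor betaglycan, had 464 and 1675 CPM (1.85, core 1.43), Tgfb2 87.5 and 191 CPM (1.13, core 1.05) and Tgfb3, another ligand, 184 and 60.6 CPM (-1.61, core -1.69). Fgf7, a growth factor for epithelium, had 102 and 217 CPM (1.09, core 0.84), and Cntfr 134 and 776 CPM (2.54, core 2.03). Ntrk2, the receptor of BDNF, had 74.8 and 15.6 CPM (-2.26, too few UMIs among core members), and Bdnf 25.5 and 67.5 CPM (1.41, core 0.72). Of 8 hedgehog genes 2 were lower, Hhip of the choice with 5735 and 2170 CPM (-1.40, core -2.20) and the hedgehog co-receptor Cdon. Among core members 1 of 6 was lower, and Ptch1 had 183 and 114 CPM (-0.68, core 0.33).

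Some genes differed by 2-fold in the same direction in both pairs, which share no library. Of 5755 genes measured in both, 18 were at least 2-fold lower in both mutants, 78.3% of the 23 lower in the Bdnf pair and 4.38% of the 411 lower in the Hgf pair. Among them were Spon2, Lum, Igfbp3, Cyp2e1, Angpt2, Mmp3 (a metalloproteinase), C4b (a complement factor), Clu (clusterin, a secreted chaperone), Cxcl14 (a chemokine), Ifi27, Iigp1, Olfm1, Slc16a9, H2bc4 and Ccl19-ps2. Lum had 492, 156, 269 and 45 CPM, Spon2 202, 52.8, 412 and 25.1 CPM, and Igfbp3 511, 161, 412 and 120.3 CPM over the 4 libraries. Both controls were above both mutants for these 3 genes. Hhip was also in this count, but as a gene of the choice it is no finding, and it was just under 2-fold lower among core members of the Bdnf pair (-0.99). Cxcl14 had the opposite sign among core members of the Bdnf pair.

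Spon2, Lum and Igfbp3 were also lower within the Hhip-rich and the Aspn-rich members taken alone. In the Bdnf pair Spon2 had log2 ratios of -2.18 in Hhip-rich and -1.68 in Aspn-rich members, and in the Hgf pair -4.21 and -3.95. Lum had -2.10 and -1.22 in the Bdnf and -1.85 and -3.17 in the Hgf pair, and Igfbp3 -1.41, -1.36, -1.87 and -1.34. Hhip differed less evenly, with -0.78 and -0.07 in the Bdnf pair and -1.24 and 1.29 in the Hgf pair. Cyp2e1 was lower in 3 of these 4 comparisons and higher in Aspn-rich members of the Hgf pair (2.95). All ratios in Aspn-rich members of the Hgf pair, also those of Spon2, Lum and Igfbp3, rest on 57 control cells. Of these cells, 43.9% held at least 3 adventitial markers and 17.5% at least 3 pericyte markers.

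On the higher side 11 genes were shared, 52.4% of the 21 higher in the Bdnf pair and 2.04% of the 539 in the Hgf pair. Tgfb2 had 118, 248, 87.5 and 191 CPM and Pgf 8.42, 29.8, 20.7 and 120.3 CPM, both above barcodes without a cell in the mutants (52.3 and 43.7 CPM, and 2.87 and 3.26 CPM). In Hhip-rich members alone Tgfb2 had ratios of 0.32 in the Bdnf and 1.20 in the Hgf pair, and in Aspn-rich members 1.15 and 0.99. Bmp3, a ligand that limits BMP signals, had 96.9, 200, 58.9 and 127 CPM. Cyp26b1, Dbp and Ciart had 1 or 2 UMIs in Hgf lox/lox members. Kdr, Hopx and Scgb1a1, genes of endothelium, alveolar epithelium and club cells, lay below their levels in barcodes without a cell, and Kdr was not higher in Hgf iPCKO among core members (log2 ratio -0.01). Scgb1a1 had 1171, 2459, 409 and 3055 CPM in members and 13966 to 31714 CPM in those barcodes, and Gm29216 is a gene model without a name.

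Pdgfrb, the gene whose regulatory sequence drives the transgene, was also among the 11. It had 64.9 CPM in Bdnf lox/lox, 157 in Bdnf iPCKO, 118 in Hgf lox/lox and 600 in Hgf iPCKO (1.27, 1.10 to 1.45, and 2.35, 2.00 to 2.71). It was higher in the mutants of both pairs in pericytes (660 and 1615 CPM, 1250 and 3859 CPM), matrix fibroblasts (6.14 and 55.5 CPM, 21.1 and 108 CPM), AT2 cells (0.943 and 6.11 CPM, 0.756 and 8.88 CPM) and barcodes without a cell (12.8 and 42.5 CPM, 15 and 91.5 CPM). Transcripts of the transgene and of the endogenous gene cannot be told apart in these counts.

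**Figure D5:**
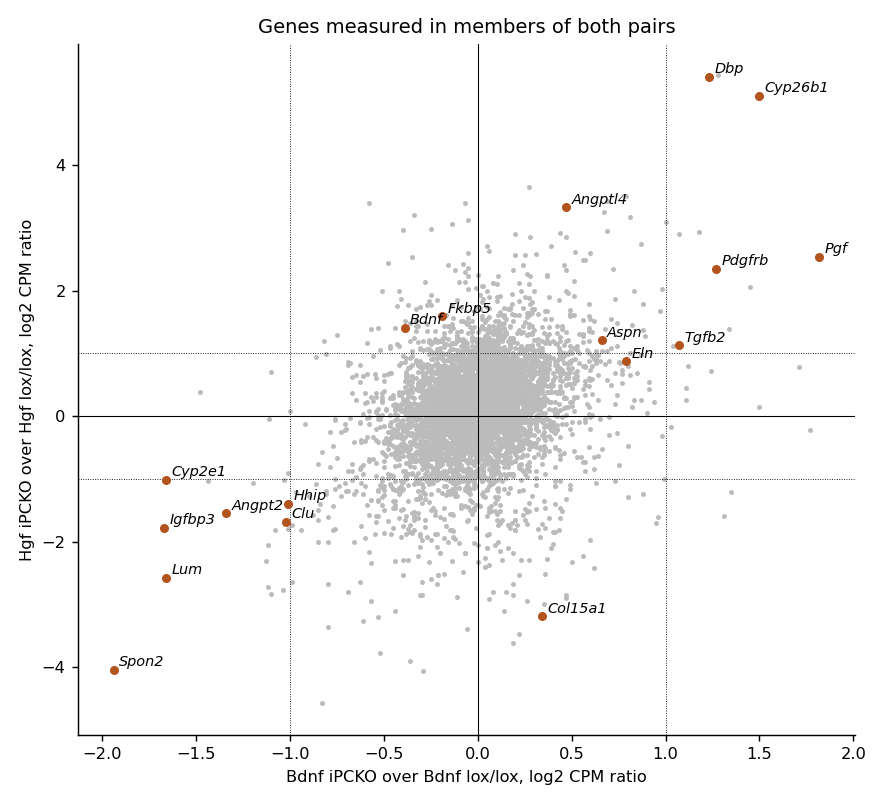
Log2 ratio of CPM in members, Bdnf iPCKO over Bdnf lox/lox (horizontal) and Hgf iPCKO over Hgf lox/lox (vertical), for genes measured in both pairs (points), with 18 genes named. Dotted lines mark 2-fold. Spon2, Lum, Igfbp3, Angpt2, Clu and Hhip (of the choice) lie in the lower left, and Pgf, Tgfb2 and Pdgfrb in the upper right.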

How the data were processed

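Single-cell RNA-seq (BD Rhapsody, 3′ capture) of mouse lung at P21 was taken from 4 libraries, 1 per genotype. The authors aligned reads with STAR 2.7.10a to GRCm39 with a Gencode annotation and deposited estimated counts of UMIs for every barcode, in which reads that map to several genes are shared out, so 8.97 to 10.5% of entries were not whole. No cell filter had been applied in these matrices, and the authors' later cell filters were not used.

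Members and comparison classes were chosen per barcode by the marker rules given in the results. The members and all gene lists were chosen with earlier results of these data known, and the core members, the split by Hhip and Aspn and some named genes after values had been seen. Estimated counts were summed over members per library, rounded and scaled to CPM. Ratios of CPM between the libraries of a pair were computed for genes with at least 50 UMIs over the pair, with conditional exact 95% intervals; CPM have exact Poisson and shares exact Clopper-Pearson intervals, all covering counting error only. A gene was counted as higher or lower when it was at least 2-fold apart. At 50 UMIs the intervals of all genes so counted over the members of a pair also excluded 0. Counts under other settings did not require this. Where a library had no UMI of a gene, 3 UMIs took its place and the ratio is given as a bound. With 1 library per genotype there was no test and no p-value.

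Named were the 6 markers of the choice, Bdnf and Hgf. In each list the genes with the most UMIs and those past 2-fold were eligible. Per pair and direction the 12 genes with the largest ratios were named if the higher library exceeded its barcodes without a cell (20 to 100 UMIs) by 2-fold, leaving out mitochondrial, ribosomal, Gm and Rik genes. The 15 genes furthest above other mesenchyme completed the rule. For the split by Hhip and Aspn, 15 genes per direction were ranked by their ratio nearest 0 over the 4 libraries, and some further genes were added. Doublets were treated by the excluded genes, with Scrublet calls as an alternative (expected rate 0.1). Computation used numpy 2.4.6, scipy 1.17.1, pandas 2.3.3 and scanpy 1.11.5, and the ratio and interval code was tested on simulated data. Some genes that met the rule are not reported here.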

Additional observations from a re-analysis of the deposited data

How the results depend on the processing

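No paired analysis was possible because each genotype is 1 library and the labels pair no mice across genotypes. The order of the shares (Bdnf iPCKO, Bdnf lox/lox, Hgf iPCKO, Hgf lox/lox, from the highest) was the same under every alternative. In the order Bdnf lox/lox, Bdnf iPCKO, Hgf lox/lox, Hgf iPCKO they were 5.81%, 6.396%, 1.128% and 3.357% with no UMI of an excluded gene allowed, 6.777%, 7.667%, 1.036% and 3.237% with at least 4 markers, 13.09%, 15.58%, 2.309% and 6.048% with a mitochondrial share of at most 10%, 6.21%, 7.288%, 0.9436% and 3.439% over core members and 6.801%, 7.486%, 1.017% and 3.228% with cells thinned to 700 UMIs (the last 2 values also when each pair was thinned to its own minimum). The Bdnf shares were 8.259% and 9.768% without Scrublet calls and 6.24% and 7.944% without members with 2 smooth muscle markers, and Hgf iPCKO had 3.258% with a minimum of 1500 UMIs.

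Counts of genes moved with the number of UMIs required. At least 20 UMIs gave 539 higher and 280 lower genes in the Bdnf pair and 1016 and 867 in the Hgf pair, at least 200 gave 59 and 50, and 158 and 114, and no filter 1580 and 941, and 1880 and 1698. Cells thinned to 1500 UMIs gave 107 higher genes in the Bdnf pair, and cells thinned to 700 UMIs gave 236 higher and 89 lower in the Hgf pair. Subtracting free RNA at an assumed 10% of the members' UMIs gave 650 higher genes in the Bdnf pair, and core members 238 lower genes in the Hgf pair.

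Among list medians of the Hgf pair, collagen genes had -0.76 with no excluded UMI, -0.52 thinned and -0.11 over core members. Elastic fibre genes had -0.04 thinned, -0.46 with cells weighted equally and -0.01 over core members, and contractile genes -0.36 with at most 10% mitochondrial UMIs and -0.07 without members with 2 smooth muscle markers. Glucocorticoid response genes had 1.03 thinned. In the Bdnf pair collagen genes had 0.13 over core members and glucocorticoid response genes 0.17 with cells thinned to 1500 UMIs. Signs turned in the Hgf pair for the matrix fibroblast markers (0.23 over core members), Postn (0.19 with no excluded UMI, 0.87 thinned, 0.12 over core members) and Kdr (-0.25 thinned, -0.01 over core members); the cause was not tested. None of 34 genes past 2-fold in the Bdnf pair that were followed through the alternatives changed sign, but Cxcl14, which was not among them, did over core members. Of these 34, 3 fell under 2-fold over core members and 9 under another alternative, and of 66 such genes of the Hgf pair 8 and 18 did, beside the 2 that changed sign, Postn and Kdr. The core members, and thinning all 4 libraries to 700 UMIs, were alternatives chosen after seeing the data. The Hgf control holds 194 members with 628640 UMIs, which limits the precision of that pair.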

Other observations

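A few single genes known from the circadian clock are given here as values. They were picked after their values had been seen, from no fixed list, so they stand for no group. Nr1d1, a repressor of the clock, had 157, 170, 178 and 668 CPM in Bdnf lox/lox, Bdnf iPCKO, Hgf lox/lox and Hgf iPCKO, a log2 ratio of 1.91 (1.62 to 2.21) in the Hgf pair. Hlf, a transcription factor of clock output, had 571, 812, 250 and 1117 CPM (0.51 and 2.16), and Tef, of the same family, 79.9, 111, 33.4 and 243 CPM (0.47 and 2.86). Dbp, the third of that family, had 2 UMIs in Hgf lox/lox and 156 in Hgf iPCKO, a ratio of 5.41 with an interval of 3.53 to 8.47, and 1.23 (0.88 to 1.59) in the Bdnf pair.

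Arntl, the activator whose transcript cycles opposite to these genes, had 62.5, 31.8, 54.1 and 23.4 CPM, ratios of -0.97 (-1.22 to -0.73) and -1.21 (-2.0 to -0.44). AT2 cells had ratios of 0.97 and 5.20 for Dbp and -0.87 and -2.21 for Arntl, and barcodes without a cell 1.61 and 5.09 for Dbp and -0.45 and -2.65 for Arntl. For Dbp and Arntl the ratios thus had the same sign in AT2 cells and in free RNA of the same libraries. Npas2, a partner of Arntl, had 32.2, 14.9, 36.6 and 21.6 CPM, a ratio of -1.11 (-1.47 to -0.76) in the Bdnf pair and too few UMIs for one in the Hgf pair.

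Xist was found with 1, 2, 0 and 0 UMIs in members of the 4 libraries, and Ddx3y, a gene of the Y chromosome, had 155, 151, 151 and 208 CPM.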
